A study of Mus musculus with 4 samples.

Results

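Expression of 7 genes known from Schwann cells and the neural crest (Nes, Col28a1, S100b, Ngfr, Erbb3, Sox10 and Mbp) was examined in cultured mouse periosteal cells. The genes were matched by symbol to 7 of the 45802 symbols in the table, and they had been chosen by name with their log2 differences between reporter+ and reporter− cells in these same libraries known. Their levels and differences are therefore a description, and no p-value is given for them. Cells came from the femurs and tibias of male PDGFRα-mTmG mice aged 9 to 10 weeks. They had received 5 daily doses of tamoxifen (150 mg/kg) at 2 months of age, the last one 14 days earlier. In these mice, tamoxifen turns on membrane GFP in place of membrane tdTomato in cells that express CreER under the Pdgfra promoter. GFP thus records activity of the promoter at the time of tamoxifen and not at the sort. Cells were pooled from 3 to 6 mice per population according to the labels, a number that the methods of the study give differently, and were grown for 1 passage with 10 ng/mL bFGF. They were then sorted as negative for CD31, CD45 and Ter119, and as GFP+ (PDGFRα reporter+) or tdTomato+ (PDGFRα reporter−). Each population gave 2 libraries of total RNA, and the question was how the populations differ in expression.

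Schwann cells ensheath peripheral axons and arise from the neural crest. The transcription factor SOX10 directs their development, neuregulin acts on them through the receptor pair ERBB2 and ERBB3, and NGFR, a receptor for neurotrophins, marks immature and injured Schwann cells. Periosteum is innervated, so that Schwann cells and nerve sheath cells can be carried along when it is digested. Several of these genes are not limited to glia: Nes in particular is also known from pericytes, endothelial cells, muscle progenitors and skeletal progenitors.

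The values were log2 expression after quantile normalization by the authors, from −10.07 to 11.73 in each library, with blanks for genes that gave no signal. Neither the linear unit nor the sequencing depth is known, so that levels of different genes cannot be ranked, and no counting error was given. Between 15423 and 15605 genes had a value in a library, and 14415 had one in all 4. Libraries carry the number 2 or 3 in the table, and across genes those with the same number were more alike (correlation 0.984 and 0.982) than those of the same population (0.952 and 0.957). Differences are reporter+ minus reporter− on the log2 scale with the standard error (SE) of limma, and were also taken within each number. Pdgfra itself did not separate the populations, with values of 7.78 and 7.62 in reporter+ and 7.87 and 7.44 in reporter− libraries. With 2 libraries against 2, an exact permutation test (two-sided) cannot go below 0.333. With limma, 0 genes passed an adjusted p of 0.05 (0% in either direction), 131 had an unadjusted p under 0.05 (0.909%, with 0.451% higher and 0.458% lower in reporter+ cells), and 29 passed when the library number was a block (0.201%, with 0.153% higher and 0.0486% lower). With the block but without a trend in the variance, 0 passed. Nothing in the labels says that the 2 libraries of a population came from separate cultures or animals, so they may not be independent replicates. Libraries of the same number deviated together from their population means (correlation 0.681 across genes), and the source of this spread was not tested.

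Of the 7 genes, 6 had a value in every library and Sox10 had none in reporter+ cells. All 6 had a lower mean in reporter+ cells, and 5 of them were lower within both library numbers, compared with 24.8% of all genes and with 25% of those with a mean below 0. None was higher within both numbers, as 22.1% of all genes were. In 3 of the 6 (Nes, Ngfr and Erbb3) both reporter+ libraries lay below both reporter− libraries, compared with 8.1% of all genes and 9.74% of those with a mean below 0 (10.4% of which were higher without overlap). Since the genes were chosen with this contrast known, nothing is read from these shares.

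**Figure D1:**
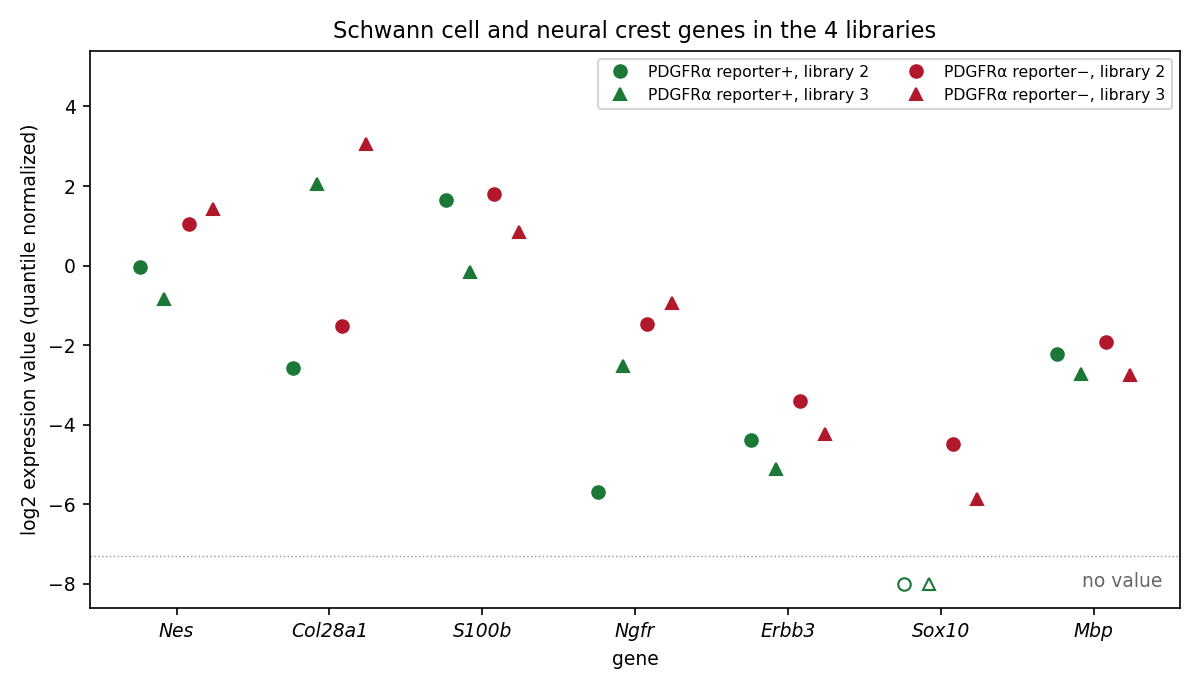
Log2 expression values (vertical axis) of the 7 genes in each library, with colour for the population and symbol for the library number, and open symbols for libraries without a value. Reporter+ libraries lie below both reporter− libraries for Nes, Ngfr and Erbb3, whereas Col28a1 is split by library number.

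Nes encodes nestin, an intermediate filament protein of neural and other progenitor cells, and lies on chromosome 3 from 87971078 to 87980451 (GRCm38, GENCODE M21), with no overlapping gene. Its log2 values were −0.04 and −0.83 in reporter+ libraries 2 and 3, and 1.05 and 1.41 in reporter− libraries 2 and 3. The populations did not overlap, and the means were −0.44 ± 0.56 and 1.23 ± 0.26 (SD, n = 2). The log2 difference of −1.67 (SE 0.39) corresponds to a 3.18-fold higher level in reporter− cells and exceeded the spread between libraries. With a pseudocount of 1 it was −0.94. It was present within both numbers but larger in the libraries numbered 3, where it was −2.24, than in those numbered 2, where it was −1.10. Going from number 2 to number 3, Nes was lower in reporter+ cells by a change of −0.79 and higher in reporter− cells by 0.36. Among all genes with 4 values, 0.486% had a difference as negative as that of Nes. The 250 bases upstream of its start site (RefSeq, GRCm38.p6) are shown because Nes differed between the populations, with matches to 5 short motifs in capitals. Start sites of RefSeq can differ from those of GENCODE.
Nes, chr3:87970843-87971092, plus strand: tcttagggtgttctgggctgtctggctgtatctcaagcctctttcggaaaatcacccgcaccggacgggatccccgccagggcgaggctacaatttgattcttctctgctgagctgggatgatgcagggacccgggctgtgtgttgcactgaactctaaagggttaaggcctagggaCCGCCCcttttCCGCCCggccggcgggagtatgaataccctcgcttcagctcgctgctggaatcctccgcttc

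Genes with a profile closest to that of Nes over the 4 libraries were sought among 10223 genes whose log2 values averaged 0 or more, by the Euclidean distance of values centred on the mean of each gene. They were Ass1, an enzyme of arginine synthesis (distance 0.839, log2 difference −0.85), Col4a5, a basement membrane collagen chain (0.868, −0.84), and Ano3, a member of the anoctamin family (0.926, −0.91). In each of them the reporter+ libraries lay below the reporter− libraries, as in Nes, by a smaller difference. Since these genes were selected on likeness to the profile of Nes, sharing its direction is no finding.

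Ngfr, the low-affinity neurotrophin receptor gene, is on chromosome 11 from 95568818 to 95587735 and had the most negative difference of the 6 genes. Its log2 values were −5.70 and −2.52 in reporter+ libraries 2 and 3, and −1.47 and −0.95 in reporter− libraries 2 and 3. The reporter− libraries were close to each other, and the reporter+ libraries lay below them but 3.18 apart. The means were −4.11 ± 2.25 and −1.21 ± 0.37 (SD, n = 2), a log2 difference of −2.90 (SE 1.17). Within numbers 2 and 3 the difference was −4.23 and −1.57, and with a pseudocount of 1 it was −0.39 overall. Its size therefore rested largely on the low value in reporter+ library 2, and without that library it was −1.31. Of all genes, 0.0486% had a difference as negative. The spread of differences is wide at such levels, with an SD of 0.688 for the 4191 genes that averaged under 0 and of 0.216 for the others. The upstream bases of Ngfr, the other gene with a large difference and no overlap, were as follows.
Ngfr, chr11:95587699-95587948, minus strand: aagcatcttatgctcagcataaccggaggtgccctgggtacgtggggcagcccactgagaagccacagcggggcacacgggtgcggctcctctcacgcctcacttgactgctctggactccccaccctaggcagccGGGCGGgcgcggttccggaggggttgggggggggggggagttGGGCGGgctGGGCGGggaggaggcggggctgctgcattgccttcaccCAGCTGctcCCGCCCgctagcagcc

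Erbb3, the neuregulin receptor of Schwann cells (chromosome 10, 128567523 to 128589652) and host of Mir6917, which had no value, was lower in reporter+ cells by a smaller difference. Its log2 values were −4.39 and −5.12 in reporter+ libraries 2 and 3, and −3.40 and −4.23 in reporter− libraries 2 and 3. The populations did not overlap, but reporter+ library 2 and reporter− library 3 nearly met. The means were −4.75 ± 0.52 and −3.81 ± 0.58 (SD, n = 2), and the difference of −0.94 (SE 0.68) was −0.99 and −0.89 within numbers 2 and 3. With a pseudocount of 1, which weighs low values down, it was −0.049. These values were at percentiles 8.93 to 16.2 of the genes with a value in the same library, on a scale that is not known to be per gene length.

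Sox10 (chromosome 15, 79154908 to 79165240) was blank in both reporter+ libraries. It had log2 values of −4.49 and −5.87 in reporter− libraries 2 and 3, at percentiles 11.6 and 5.95. As depth is unknown, the blanks are not evidence of absence, and no fold change was computed. Foxd3, a neural crest transcription factor, showed the same pattern of blanks, with −5.06 and −6.68 in the reporter− libraries.

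Col28a1 encodes the collagen XXVIII chain, which is known from the basement membrane around Schwann cells in peripheral nerve. It lies on chromosome 6 from 7997808 to 8192617, with no overlapping gene. Its log2 values were −2.57 and 2.06 in reporter+ libraries 2 and 3, and −1.52 and 3.05 in reporter− libraries 2 and 3. Both libraries numbered 3 were thus above both numbered 2, by 4.63 in reporter+ and 4.57 in reporter− cells, and the populations overlapped. This difference between numbers was larger in size than in 99.8% of the genes with 4 values, for which the median size was 0.31. Within a number, reporter+ cells were lower by nearly the same amount, −1.05 and −0.99. The overall difference of −1.02 had an SE of 2.19, because the model without a block counts the difference between numbers as spread. The upstream bases of Col28a1 are given for comparison with Nes and Ngfr.
Col28a1, chr6:8192618-8192867, minus strand: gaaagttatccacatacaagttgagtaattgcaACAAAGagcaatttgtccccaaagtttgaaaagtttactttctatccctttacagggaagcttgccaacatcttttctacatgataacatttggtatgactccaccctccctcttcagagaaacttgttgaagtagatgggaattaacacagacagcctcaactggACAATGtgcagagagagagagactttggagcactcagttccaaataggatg

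By the same distance, the profiles nearest to Col28a1 were those of Col15a1, a basement membrane zone collagen (distance 0.354), Aoc3, an amine oxidase of the cell surface (0.689), and Rarres2, which encodes chemerin (1.02). In each of them, library 3 was above library 2 by at least 3.82 in both populations. Reporter+ cells were lower by −1.02 and −1.19 within the numbers for Col15a1, by −0.90 and −0.51 for Aoc3, and by −0.38 and −0.01 for Rarres2. Since they were selected on likeness to a profile with a large difference between library numbers, sharing that difference is no finding.

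Motifs were sought on both strands of the 250 upstream bases, for the 4 of the 7 genes with a window in the RefSeq table (Nes, Col28a1, S100b and Ngfr). Col28a1 held both SOX cores searched, ACAAAG at 217 and ACAATG at 51 bases upstream, which occur in 16.5% and 10.7% of all 32851 windows. Nes held 2 GC boxes (GGGCGG on the reverse strand) at 73 and 62 bases upstream, and Ngfr held 4, at 114, 72, 63 and 16 bases. A GC box was found in 32.7% of windows. Ngfr also held the E-box CAGCTG at 25 bases (13% of windows), and no window of the 4 genes held TATAAA (12.4%). No motif searched was found in S100b. These matches are a description of the sequence and not of binding.

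S100b encodes a calcium-binding protein used as a Schwann cell marker, but also made by chondrocytes and adipocytes. It lies on chromosome 10 from 76253853 to 76261159 and its end overlaps Dip2a on the opposite strand, which had log2 values from 2.60 to 2.82. The libraries were stranded, but whether strand was used in counting is not given. The values of S100b were 1.64 and −0.17 in reporter+ libraries 2 and 3, and 1.79 and 0.84 in reporter− libraries 2 and 3. The populations overlapped, as library 2 was higher than library 3 in each. With means of 0.74 ± 1.28 and 1.31 ± 0.67 (SD, n = 2), the log2 difference of −0.58 (SE 0.72) was smaller than the spread. It came mostly from number 3 (−1.01), with −0.15 within number 2.

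Mbp, the gene of myelin basic protein on chromosome 18, had log2 values of −2.23 and −2.72 in reporter+ libraries 2 and 3, and −1.93 and −2.75 in reporter− libraries 2 and 3. The populations overlapped, and the difference of −0.14 (SE 0.55) had opposite signs within the numbers (−0.30 and 0.03). GENCODE M21 lists 16 transcripts of Mbp, which include forms made outside myelin, and the table has a single value for all of them.

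**Figure D2:**
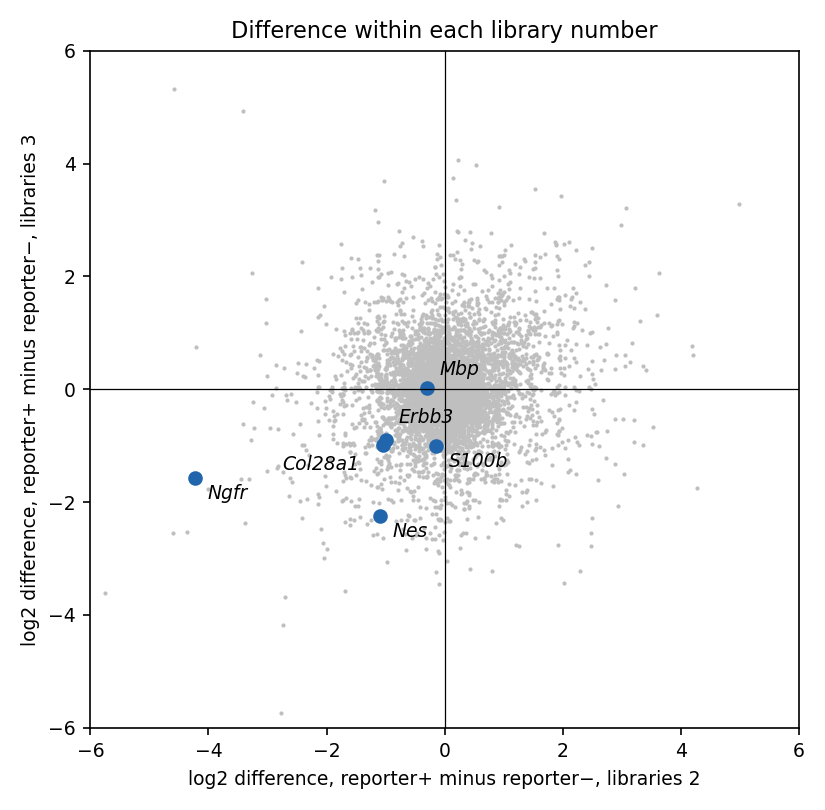
Log2 difference (reporter+ minus reporter−) within libraries 2 (horizontal) against that within libraries 3 (vertical), for the 14415 genes with 4 values (gray) and 6 of the genes described (blue). Nes, Ngfr, Erbb3, Col28a1 and S100b lie below 0 on both axes, and Mbp is near 0.

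**Figure D3:**
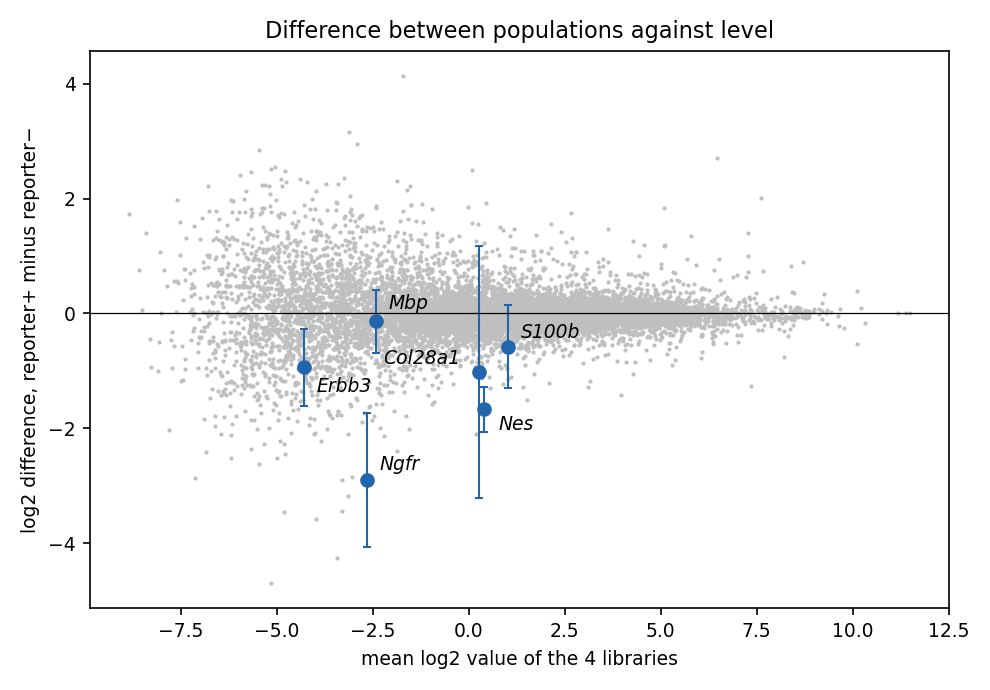
Log2 difference between populations (vertical) against the mean log2 value of the 4 libraries (horizontal), for all 14415 genes (gray) and 6 of the genes described (blue, bars are ± SE from limma). The gray cloud widens at low levels, where Ngfr, Erbb3 and Mbp lie, and the bar of Col28a1 is the longest with an SE of 2.19.

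The other genes of Schwann cells and the neural crest were then examined in 5 lists, which cover transcription factors, myelin, immature and repair Schwann cells, neuregulin signaling and neurotrophins. Without the genes described above they held 80 genes, of which 59 had 4 values, 13 had some and 8 had none. Within both numbers, 22 of the 59 were lower in reporter+ cells (37.3%, compared with 24.8% of all genes) and 21 were higher (35.6%, compared with 22.1%). The median difference was −0.08, beside −0.0035 over all genes. The populations did not overlap for 6 lower genes (10.2%, compared with 8.1% of all genes) and 4 higher genes (6.78%, compared with 7.59%). None of the 59 passed limma's adjusted p of 0.05, none had an unadjusted p under 0.05, and none passed with the library number as a block.

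Of 20 other transcription factors, 15 had 4 values, with a median difference of −0.12. Of the 15, 7 were lower and 4 higher in reporter+ cells within both numbers (24.8% and 22.1% of all genes). Without overlap, 1 was lower and 1 higher (8.1% and 7.59% of all genes). Pou3f1, which acts in Schwann cells before myelination, was lower in reporter+ cells without overlap, with −7.08 and −6.96 compared with −5.38 and −5.45 (log2 difference −1.61). Tfap2a, a factor of early neural crest, was higher without overlap, with −7.66 and −6.58 compared with −7.69 and −7.70 (0.57). Egr2, a regulator of myelination, had −4.27 and −3.40 in reporter+ and −3.51 and −1.97 in reporter− libraries 2 and 3.

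Of 15 other myelin genes, 7 had 4 values and 4 (Pmp2, Gjb1, Gjc3 and Fa2h) had none. The median difference of the 7 was −0.30. With Mbp included it was −0.25, and it became −0.038 with a pseudocount of 1 and 0.11 without reporter+ library 3. Both reporter+ libraries were below both reporter− libraries for Dhh, a hedgehog ligand of Schwann cells (log2 difference −1.36), Drp2 (−0.44) and Prx (−0.30). They were above for Cldn19 (0.39), a claudin of Schwann cells. Of the 7 genes, 3 were thus lower and 1 higher without overlap (8.1% and 7.59% of all genes), and 3 were lower and 2 higher within both numbers (24.8% and 22.1%).

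Among 13 other genes of immature, non-myelinating and repair Schwann cells with 4 values, 0 had populations without overlap (8.1% of all genes were lower and 7.59% higher without overlap). Within both numbers, 4 were lower and 4 higher (24.8% and 22.1% of all genes), and the median difference was −0.02. With Ngfr, S100b and Col28a1 included the median was −0.16, and it ranged from −0.55 to 0.07 with each library left out. The genes higher within both numbers were the adhesion genes Ncam1 (0.27) and L1cam (0.19) and the ligand genes Gdnf (0.34) and Artn (0.25). Those lower within both numbers were Scn7a (−0.62), Cdh19 (−0.58), Lgi4 (−0.46) and Adgrg6 (−0.23). Cdh19, a cadherin of Schwann cell precursors, had −4.18 and −4.78 in reporter+ and −3.35 and −4.45 in reporter− libraries 2 and 3, and Gfap had a value in 1 reporter− library only. Fabp7, a lipid carrier of Schwann cell precursors, had −3.18 and −3.46 in reporter+ libraries, −4.02 in reporter− library 3 and no value in reporter− library 2. In neuregulin signaling, the partner receptor gene Erbb2 had a log2 difference of −0.08, Egfr of 0.23 and the ligand gene Nrg1 of −0.31. Erbb4 was the only gene of the list, Erbb3 aside, whose populations did not overlap (1.40), with values between −9.44 and −6.75. Of the 14 genes of this list with 4 values, 1 was thus higher and 0 lower without overlap (7.59% and 8.1% of all genes). Within both numbers, 4 of the 14 were lower and 6 higher (24.8% and 22.1%). In the neurotrophin list the ligand gene Bdnf (−0.02) and the NGFR partner gene Sort1 (−0.76) overlapped between populations. Lingo1, a partner of the Nogo receptor and NGFR, was lower in reporter+ cells without overlap (−0.97), whereas Rtn4r, the Nogo receptor gene itself, was higher (1.09). Nradd was also lower without overlap (−0.13). Of the 11 genes other than Ngfr with 4 values, 2 were thus lower and 1 higher without overlap (8.1% and 7.59% of all genes). Within both numbers, 4 of the 11 were lower and 5 higher (24.8% and 22.1%).

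The label of the 7 genes was checked against 6 genes known from Schwann cells (Sox10, Cdh19, S100b, Erbb3, Foxd3 and Egr2). As 3 of them (Sox10, S100b and Erbb3) are among the 7 genes, this check is not independent of them. Apart from S100b, their values were −1.97 or lower in every library, and 2 of the 6 were blank in both reporter+ libraries. The 10 markers of periosteal stroma had a value in every library, with a summed level of 11.16 and 11.51 in reporter+ and 11.10 and 11.35 in reporter− libraries 2 and 3 on the log2 scale. Within both numbers, 6 of the 10 were lower and 2 higher in reporter+ cells (24.8% and 22.1% of all genes). Without overlap, 1 was lower and 1 higher (8.1% and 7.59% of all genes), and the median difference was −0.096. The sum over the 6 Schwann cell genes was 1.71 and 0.07 in reporter+ and 1.93 and 1.12 in reporter− libraries, and most of it was the value of S100b (1.64, −0.17, 1.79 and 0.84 in the same order), which is not limited to Schwann cells. Sums add values of different genes on a scale not known to be per gene length, so they are compared between libraries only. In bulk RNA, fewer cells of a type and less RNA per cell cannot be told apart.

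Markers of other cell types were compared in the same way, and their counts are given beside the shares of all genes. Of 11 endothelial genes, 8 had 4 values, 7 of them were lower in reporter+ cells within both numbers (24.8% of all genes), 4 did so without overlap (8.1%), and the median difference was −1.30 (−0.27 with a pseudocount of 1 and −3.19 with blanks at the lowest value). Their summed level was 0.81 and 0.76 in reporter+ and 1.77 and 2.17 in reporter− libraries 2 and 3, and Flt1 and Cldn5 were blank in reporter+ library 2 and Tie1 in reporter+ library 3. The highest endothelial value was that of Erg in libraries 2 (0.40 in reporter+ and 0.96 in reporter−). In libraries 3 it was that of Tek (0.05 and 1.10), and both genes overlapped between populations. Of 11 pericyte and smooth muscle genes, all with 4 values, 8 were lower within both numbers (24.8% of all genes), 4 of them without overlap (Myh11, Des, Mcam and Notch3, 8.1%), and 2 (Kcnj8 and Abcc9) were higher without overlap (7.59%). Their summed level was 4.41 and 5.04 in reporter+ and 5.35 and 5.56 in reporter− libraries. Of 9 myogenic genes, 5 had 4 values, 2 (Myh3 and Des) were lower without overlap (8.1% of all genes), and Pax7 and Myf5 had no value in any library. The myogenic sum was 0.43 and −0.05 in reporter+ and 1.22 and 0.42 in reporter− libraries. The 10 macrophage genes had a higher mean in reporter+ cells, 9 of them were higher within both numbers (22.1% of all genes) and 5 without overlap (7.59%), with sums of 7.87 and 8.12 compared with 6.55 and 7.48. Of these 4 lists, 0 genes passed limma's adjusted p, and 1 (Tyrobp) passed with the block (0.201% of all genes), a call that was lost with the block but no trend. An unadjusted p under 0.05 was found for 4 endothelial genes (Pecam1, Cdh5, Kdr and Emcn), 2 pericyte genes (Myh11 and Des) and 2 myogenic genes (Myh3 and Des), all lower in reporter+ cells (0.458% of all genes), and for 2 macrophage genes (Cd68 and Tyrobp), both higher (0.451%). The sort took cells negative for CD31 and CD45, a gate meant to remove endothelial cells and macrophages. The CD31 gene Pecam1 had −4.68 and −4.79 in reporter+ and −1.99 and −1.11 in reporter− libraries 2 and 3. The CD45 gene Ptprc had −1.28 and −0.39 in reporter+ and −2.30 and −1.22 in reporter− libraries. The part of any such cells in the differences of the 7 genes was not tested.

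Cells of the nerve sheath were covered by further lists. Of 10 perineurial genes, 7 had 4 values, 4 were lower in reporter+ cells within both numbers (24.8% of all genes) and 0 were higher, with a median difference of −0.97. This median depended on the processing, at 0.033 for genes that averaged 0 or more, −0.088 with a pseudocount of 1, and −0.55 to −0.13 with each library left out. Msln and Krt19 were lower without overlap (8.1% of all genes), whereas Slc2a1 (0.07) and Tjp1 (−0.01), which many cells express, hardly differed. The summed perineurial level was 5.44 and 5.48 in reporter+ and 5.60 and 5.30 in reporter− libraries. Most of this sum came from Slc2a1 (4.69, 5.12, 4.72 and 4.94 in the same order) and Tjp1 (4.05, 3.24, 4.38 and 2.93), which are not limited to perineurial cells. Of 6 endoneurial fibroblast genes other than Ngfr with 4 values, the median difference was −0.05, and of 6 neuronal genes it was 0.0003. Within both numbers, 2 of the 6 endoneurial genes were lower and 1 higher in reporter+ cells (24.8% and 22.1% of all genes). Without overlap, 1 was lower (Cdkn2a, −0.29) and 1 higher (Wif1, 0.61), compared with 8.1% and 7.59% of all genes. Of the 6 neuronal genes, 1 (Tubb3, −0.39) was lower within both numbers and without overlap, and 0 were higher. With Ngfr included, the endoneurial median was −0.14, and it ranged from −0.41 to 0.26 with each library left out. The neuronal median ranged from −0.89 to 0.20 with each library left out. Among the other intermediate filament genes, 7 had 4 values and a median difference of −0.33. Within both numbers, 4 of these 7 were lower and 0 higher in reporter+ cells (24.8% and 22.1% of all genes), and 1 (Des) was lower without overlap (8.1%). With Nes included the median was −0.54, and it ranged from −1.24 to 0.11 with each library left out and was −1.12 with blanks at the lowest value. Des, the desmin gene, was lower in reporter+ cells without overlap (−2.73 and −3.89 compared with −1.13 and −1.49, and differences of −1.60 and −2.40 within numbers 2 and 3), and Vim, the vimentin gene, had a difference of −0.25. No gene of these lists passed limma's adjusted p. Of those other than the 7 genes, Des alone had an unadjusted p under 0.05 (0.909% of all genes).

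**Figure D4:**
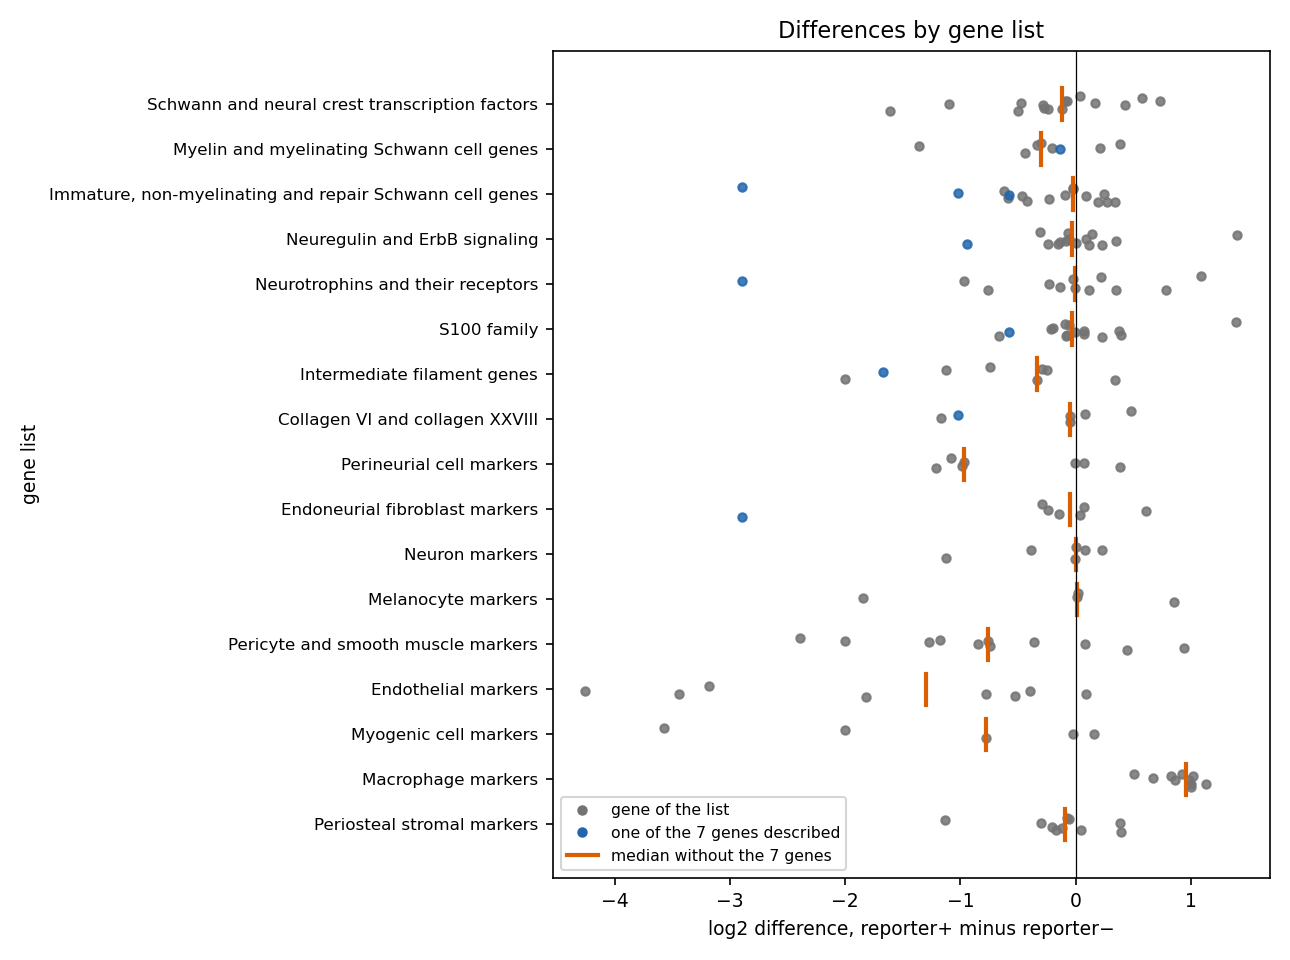
Log2 difference (reporter+ minus reporter−, horizontal) of each gene with 4 values, by gene list (vertical), with the genes described in blue and the median of the other genes as an orange line. Medians of the Schwann cell and neural crest lists lie between −0.30 and −0.01, the endothelial median at −1.30 and the macrophage median at 0.96.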

How the data were processed

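Per the labels, stranded paired-end libraries of total RNA were sequenced, and the submitters' processing notes name bcl2fastq 2.17.1.14, Partek 7.0 and the build GRCm38.p6. The authors deposited 1 quantile-normalized log2 value per gene symbol and library. The aligner, the counting and the linear unit are not given in the sources used here, so the depth and precision of each library are unknown. Columns were assigned to populations by their headings, whose numbers (2 and 3) differ from the replicate numbers of the labels.

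In R 4.3.3, limma 3.58.1 was run on genes with 4 values (eBayes with a trend, no block, two-sided, Benjamini-Hochberg over 14415 genes, threshold 0.05), and the code was tested on simulated data. The 7 genes, the lists (from general knowledge) and the naming rule (the 7 genes, up to 4 genes of each list that define it or differ most without overlap, and 3 nearest profiles each for Nes and Col28a1) were chosen with earlier results of these data known. Further genes (Cd68, Tyrobp, Ptprc, Sort1, Gfap, Fabp7, Ncam1, L1cam, Gdnf, Artn, Scn7a, Lgi4, Adgrg6, Nradd, Pmel, Slc45a2 and collagen VI chains among them) were named after their values were seen. Positions are from GENCODE M21. Summed levels are the log2 of summed linear values with blanks as 0. Libraries of the same number deviated together from their population means (correlation 0.681 across genes), but nothing in the labels states that a number marks a shared preparation. Alternatives were a block on the number, a pseudocount of 1, median centring, blanks at the lowest value, no trend, a filter at a mean of 0 and leaving out each library. Some genes of the lists are not reported here and were left out of the counts, medians and sums of their lists.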

Additional observations from a re-analysis of the deposited data

How the results depend on the processing

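With the library number as a replicate block, 22 genes were higher and 7 lower at an adjusted p under 0.05. In limma without the block and in the other alternatives on all 4 libraries, the block without a trend included, 0 passed. Log2 differences of Nes, Ngfr, Erbb3, Col28a1, S100b and Mbp moved by less than the spread between libraries, apart from a pseudocount of 1, which brought Nes to −0.94, Ngfr to −0.39 and Erbb3 to −0.049. With each library left out in turn they ranged from −2.06 to −1.28 for Nes, from −4.49 to −1.31 for Ngfr, from −1.35 to −0.53 for Erbb3, from −3.34 to 1.30 for Col28a1, from −1.48 to 0.33 for S100b and from −0.54 to 0.27 for Mbp, and leaving out 1 library also unbalances the numbers. Col28a1 turned positive without reporter+ library 2 or reporter− library 3, S100b without reporter+ library 3, and Mbp without reporter+ library 3 or reporter− library 2. List medians, here with any of the 7 genes that a list holds, moved with a pseudocount of 1 for myelin (−0.038), intermediate filament (−0.25), perineurial (−0.088), pericyte (−0.34) and endothelial genes (−0.27). With blanks at the lowest value they were −1.12 for intermediate filament, −0.49 for perineurial and −3.19 for endothelial genes. With genes of a mean of at least 0 they were 0.033 for perineurial and 0.44 for melanocyte genes. With each library left out, which also admits genes blank in it, medians ranged from −0.42 to 0.11 for myelin, from −0.056 to 0.12 for S100, from −1.24 to 0.11 for intermediate filament, from −0.55 to −0.13 for perineurial, from −1.19 to −0.22 for pericyte, from −2.35 to −1.66 for endothelial and from 0.48 to 1.46 for macrophage genes. Other causes of these moves were not tested. Unknown depth limits what the blanks of Sox10 and the low values of Erbb3 and Ngfr can show.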

Other observations

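The S100 genes and partners listed beside S100b included the receptor gene Ager. Of 16 of them, 14 had 4 values, with a median difference of −0.03. Within both numbers, 5 were lower and 1 higher in reporter+ cells (35.7% and 7.14%, compared with 24.8% and 22.1% of all genes). S100a4 (0.07) and S100a6 (−0.09) hardly differed, S100a14 was higher in reporter+ cells without overlap (log2 difference 1.39, values from −5.51 to −3.59), and S100a9 had no value in any library.

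Melanocytes are another derivative of the neural crest. Of their pigment genes, Tyr, Tyrp1 and Mlana had no value in any library, and Dct had 1 value, −6.61 in reporter− library 3. Pmel had a value in every library, with −1.66 and −1.77 in reporter+ and −2.26 and −1.18 in reporter− libraries 2 and 3. Slc45a2 had a value only in the libraries numbered 2, −7.06 in reporter+ and −7.01 in reporter− cells. Ednrb, an endothelin receptor gene of neural crest cells that is also expressed more widely, was higher in reporter+ cells without overlap (2.74 and 3.31 compared with 1.84 and 2.51, log2 difference 0.85). Kit was lower in reporter+ cells in both library numbers, with −6.94 and −4.87 in reporter+ and −5.51 and −2.60 in reporter− libraries 2 and 3. Of 8 oligodendrocyte lineage genes, 0 had a value in all libraries, and Olig1, Olig2, Mog, Opalin and Nkx2-2 had none.

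Among collagen VI chains, which share von Willebrand factor domains with collagen XXVIII, 5 had 4 values. Col6a1 had 8.16 and 7.40 in reporter+ and 7.88 and 7.77 in reporter− libraries 2 and 3. Col6a5 was higher in both libraries numbered 3, by 2.81 in reporter+ and 4.06 in reporter− cells, and Col6a4 by 3.17 and 1.49. Col6a6 had no value in either library numbered 2, and −3.27 in reporter+ and −3.02 in reporter− library 3. The change from library 2 to library 3 was −1.01 in reporter+ and −0.33 in reporter− cells for Col6a2, and −0.29 and 0.05 for Col6a3.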
